A study of Homo sapiens with 8 samples.

Results

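The genes described here are 10 that encode Toll-like receptors and the proteins that serve them at the membrane and directly below it, namely CD14, LY96, TLR1, TLR2, TLR4, TLR5, TLR6, TLR7, TLR8 and MYD88. They were taken by name, in a choice made with earlier results of these data known, and they are 10 of the 26364 genes in the expression table. RNA was sequenced from MV4-11, a human acute myeloid leukemia (AML) cell line in which every library carried the FLT3-ITD mutation and the MLL-AF4 fusion. Cells received vehicle (DMSO, called control here), tranylcypromine (TCP, an inhibitor of the histone demethylase LSD1) at 5 μM, palbociclib (an inhibitor of CDK4 and CDK6) at 0.5 μM, or both molecules, which is called the combination, and there were 2 libraries in each of these 4 groups. The labels date all libraries to day 4. According to the study's methods palbociclib was given by itself for the first day and the LSD1 inhibitor was added after it. The legend of its RNA-seq figure gives 4 days of treatment, for the single molecules as for the combination. The length of TCP exposure in the libraries treated with TCP alone is therefore not clear.

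All groups are a single cell line, and nothing in the labels says that the 2 libraries of a group came from separate cultures, so the p-values measure the spread between these libraries, which may be technical. Expression is given as TPM, transcript abundance that is corrected for length and scaled to the same total in each library. Levels of different genes can therefore be set side by side only as far as the gene lengths used hold, which are not given. The number of reads behind a value is also unknown. Differences between groups were tested with limma on log2(TPM + 1), which understates the change of genes near 0, and p-values were adjusted over 14151 genes that reached 1 TPM in at least 2 libraries. Genes were called differentially expressed (DEG) when the log2 fold change reached 1 in either direction with an adjusted p below 0.01. Of the 10 genes, 9 were tested, and TLR7 stayed below the filter. The smallest two-sided p of an exact permutation test of 2 libraries against 2 is 0.333, so the limma fit alone is used.

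Toll-like receptors recognise molecules that are shared by whole classes of microbes. TLR4 binds bacterial lipopolysaccharide only as a complex with the secreted protein MD-2, the product of LY96, and CD14 hands the lipopolysaccharide over to that complex. TLR2 pairs with TLR1 or TLR6 to recognise bacterial lipopeptides, TLR5 recognises flagellin, and TLR7 and TLR8 sit in endosomes and recognise single-stranded RNA. All of these receptors signal through the adaptor MYD88 to NF-κB and to inflammatory cytokine genes. In the blood lineages CD14 is best known as a surface marker of monocytes, which also carry TLR2, TLR4 and TLR8.

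The positions below are on GRCh37, the build of the authors' alignment, from the GENCODE annotation lifted to that build. CD14 lies on the minus strand of chromosome 5 from 140011313 to 140013285, TLR4 on the plus strand of chromosome 9 from 120466453 to 120487013, TLR8 on the plus strand of chromosome X from 12924739 to 12941288, and TLR2 on the plus strand of chromosome 4 from 154605222 to 154627412. TLR1 (minus strand, chromosome 4, 38792298 to 38858438) and TLR6 (38824518 to 38858438) overlap on the same strand, and TLR6 lies wholly inside the span of TLR1. Their transcripts shared 149 words of 75 bases, 3.14% of those in TLR1 and 2.18% of those in TLR6, so reads could have been divided between the pair in the authors' counting. MYD88 lies on the plus strand of chromosome 3 from 38180043 to 38184515 and TLR5 on the minus strand of chromosome 1 from 223282746 to 223316590. The first exon of TLR4 is also annotated to an unnamed read-through gene on the same strand.

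Promoter sequences were read from a RefSeq table for 7 of the 10 genes and were placed on GRCh37 by their single exact match. The 250 bases before the start of the RefSeq transcript in that table were searched on both strands for the core of the PU.1 site (GAGGAA or TTCCTC), for a C/EBP site (TTGCNNAA or TTNNGCAA) and for a TATA box (TATAAA or TTTATA), which are elements of many promoters active in myeloid cells. The PU.1 core was found in 23.6% of 35116 promoters of the same length, the C/EBP letters in 9.05% and the TATA box in 10.7%. GENCODE places further starts upstream of some of these, so that 246 of the 250 bases of TLR4, 210 of TLR2, 117 of CD14 and 109 of MYD88 lie in annotated exons of the same strand, and none of the bases of TLR5, TLR6 and TLR8 do. The promoter of TLR8 is shown because TLR8 had the second largest increase of the 10 genes. It held the C/EBP letters, with their first base 108 bases before the RefSeq start. It held neither GAGGAA nor TTCCTC, the letters searched as the PU.1 core, and other forms of that site were not searched. It is printed 5′ to 3′ from the plus strand of chrX:12924489-12924738, with the C/EBP letters in capitals.
TLR8 promoter: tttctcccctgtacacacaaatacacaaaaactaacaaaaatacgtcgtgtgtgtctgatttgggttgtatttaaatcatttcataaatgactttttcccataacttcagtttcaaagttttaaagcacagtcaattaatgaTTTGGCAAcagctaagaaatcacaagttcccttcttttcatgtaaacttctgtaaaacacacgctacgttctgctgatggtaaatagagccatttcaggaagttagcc

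The PU.1 core was found 1 time in the window of CD14, 4 times in that of TLR4, 1 time in those of TLR6 and MYD88, and not in those of TLR2, TLR5 and TLR8. Of the 7 windows searched, no other held the C/EBP letters, none held the TATA box letters, and no 2 motifs overlapped. The matches of CD14 and TLR4, the co-receptor and the receptor of lipopolysaccharide, are shown with 10 bases on each side and with the PU.1 core in capitals. They lie at chr5:140012841-140012866 for CD14 (minus strand), 96 bases before the start, and at chr9:120466447-120466472, chr9:120466500-120466525, chr9:120466572-120466597 and chr9:120466631-120466656 for TLR4 (plus strand), 224, 171, 99 and 40 bases before the start. These distances are from the RefSeq starts, and all 5 matches lie inside the gene spans of the GENCODE annotation given above, apart from the first bases shown for the TLR4 site farthest upstream. Such matches of letters describe the sequence and are not measured binding sites.
CD14 site at -96: ggctggctcgGAGGAAgagaggtggg
TLR4 site at -224: gccaactagcTTCCTCttgctgtttc
TLR4 site at -171: ttcttctaacTTCCTCtcctgtgaca
TLR4 site at -99: ccgctttcacTTCCTCtcacccttta
TLR4 site at -40: ggggcggctcGAGGAAgagaagacac

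The libraries held between 13320 and 13640 genes at 1 TPM or more, and libraries of the same group correlated with r between 0.983 and 0.991 across genes. Myeloid identity was present in every library, with CD33 at 103 to 141 TPM and SPI1, the gene of PU.1, at 208 to 497 TPM, whereas the lymphoid genes CD3E and MS4A1 were listed at 0 throughout. The study grew this line on HS-5 human stromal cells, which the labels of these libraries do not mention. The summed level of 12 stromal markers was 13.2 to 16.8 TPM in control, 17.5 to 22.6 TPM with TCP, 20.7 and 113 TPM with palbociclib and 29.5 to 38.3 TPM with the combination, and none of those that were tested was a DEG in any comparison. TAGLN gave a large part of these sums outside palbociclib replicate 2. It was at 10.9 and 8.30 TPM in control and 15.2 and 14.5 TPM with TCP. With palbociclib it was at 13.4 and 14.1 TPM, and with the combination at 17.0 and 17.7 TPM. COL1A1 was at 0.185 and 1.23 TPM in control and 0.151 and 1.79 TPM with TCP. With the combination COL1A1 was at 2.29 and 3.78 TPM. Palbociclib replicate 2 stood apart, with COL1A1 at 22.2 TPM against 1.32 TPM in replicate 1 and FN1 at 23.4 against 2.52 TPM. The 10 most abundant genes held 9.12% to 9.67% of all TPM in control and TCP libraries and 14.0% to 15.8% in the others, and the median log2 fold change over all tested genes was -0.16 with palbociclib and -0.22 with the combination, against 0.00 for each after scaling by median ratios. That scaling also moved the share of DEG that were higher from 49.9% to 68.0% with palbociclib and from 42.8% to 63.0% with the combination, and from 44.9% to 62.1% between the combination and TCP.

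CD14 showed the largest change of the 10 genes. Its level was 0.943 and 2.07 TPM in the control libraries, 4.32 and 6.70 TPM with TCP, 77.0 and 68.0 TPM with palbociclib and 374 and 359 TPM with the combination. The 4 groups did not overlap and lay in that order. On mean TPM, palbociclib alone gave 48.2 times and the combination 243.5 times the control level, and among all tested genes CD14 had the 7th highest log2 fold change with palbociclib and the 5th highest with the combination. The log2 fold change was 4.91 (SE 0.24, adjusted p = 4.86e-05) with palbociclib and 7.23 (adjusted p = 9.86e-06) with the combination. With TCP alone it was 1.39 (SE 0.24), which did not pass the test (adjusted p = 0.0949). In bulk RNA a larger share of cells with CD14 transcripts and more transcripts per cell cannot be told apart, and this holds for every gene below.

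**Figure D1:**
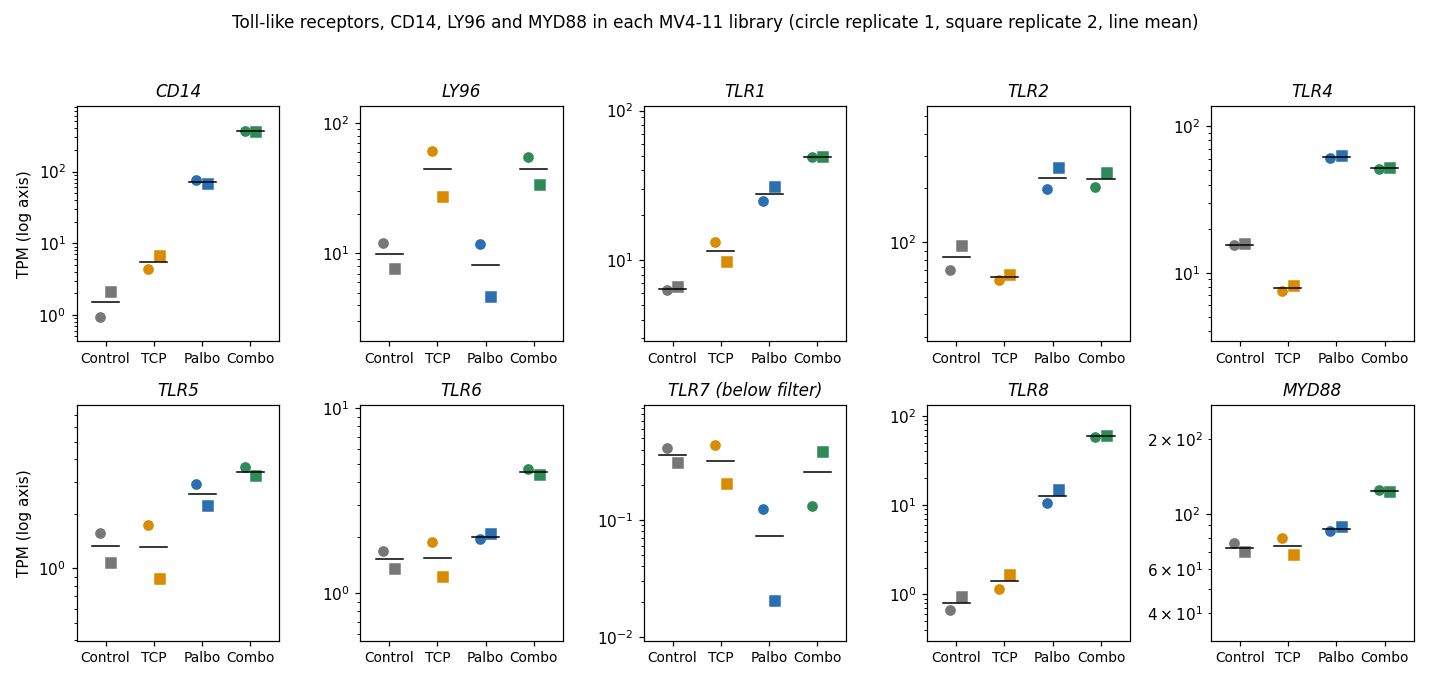
TPM on log axes (vertical, 1 panel a gene) in the 8 MV4-11 libraries for control, TCP, palbociclib (Palbo) and the combination (Combo); a circle is replicate 1, a square replicate 2 and a line the group mean, and each panel has its own range. CD14 and TLR8 climbed from near 1 TPM in control to 366 and 58.8 TPM with the combination, whereas LY96 was high in both groups with TCP and TLR2 and TLR4 were high in both groups with palbociclib.

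The step from palbociclib to the combination was a log2 fold change of 2.32 for CD14 (adjusted p = 0.00717), a DEG, with 5.05 times the level on mean TPM. This call depended on single libraries, since the adjusted p was 0.0576 without palbociclib replicate 1, 0.0543 without palbociclib replicate 2, 0.0744 without combination replicate 1 and 0.0716 without combination replicate 2. The change itself stayed between 2.24 and 2.41 in those 4 fits.

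LY96, which encodes MD-2, was higher in the groups with TCP. The control libraries held 12.1 and 7.63 TPM, the TCP libraries 61.8 and 27.1 TPM, the palbociclib libraries 11.7 and 4.64 TPM and the combination libraries 55.5 and 33.3 TPM. Both groups with TCP lay above both groups without it, with no overlap, while control overlapped palbociclib and TCP overlapped the combination. Replicate 1 was higher than replicate 2 in all 4 groups, and the SE of 0.51 in each of these comparisons was the widest of the 9 tested genes. The log2 fold change was 1.98 with TCP (adjusted p = 0.258), 2.05 with the combination (adjusted p = 0.0136) and 2.38 for the combination against palbociclib (adjusted p = 0.0598), and none of these was a DEG. It nevertheless had the 7th highest log2 fold change of all tested genes with TCP.

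With the replicate number as a block, which compares libraries of the same number, LY96 was a DEG in all 3 of those comparisons. The adjusted p with the block was 0.00686 for TCP, 0.000131 for the combination against control and 0.00186 for the combination against palbociclib. The same-numbered libraries differed by 2.27 and 1.70 on the log2 scale for TCP against control and by 2.15 and 2.60 for the combination against palbociclib. Palbociclib alone gave a log2 fold change of -0.33 (95% interval -1.54 to 0.89), and the combination differed from TCP by 0.07 (95% interval -1.15 to 1.29), and neither difference was detectable with this spread.

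TLR4, the receptor that MD-2 and CD14 serve, moved with palbociclib. It stood at 15.4 and 15.8 TPM in control, 7.48 and 8.15 TPM with TCP, 61.0 and 62.6 TPM with palbociclib and 51.0 and 52.1 TPM with the combination. The replicates lay close together and no 2 groups overlapped. It rose by a log2 fold change of 1.92 (SE 0.08, adjusted p = 3.6e-05) with palbociclib and of 1.67 (adjusted p = 2.76e-05) with the combination, and it was higher in the combination than with TCP by 2.58 (adjusted p = 9.83e-06).

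With TCP alone the TLR4 level was 1.99 times lower on mean TPM, the 76th lowest log2 fold change of all tested genes. The log2 fold change was -0.91 (95% interval -1.10 to -0.72, adjusted p = 0.00956), which was under the fold threshold of a DEG, and the adjusted p ranged from 0.00686 to 0.312 over the alternative settings. Both combination libraries also lay below both palbociclib libraries, by -0.26 on the log2 scale (SE 0.08, adjusted p = 0.164), which did not pass.

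The balance of the lipopolysaccharide receptor transcripts can be read in each library, as a description with no test. The ratio of LY96 to TLR4 in TPM was 0.784 and 0.483 in control, 8.26 and 3.32 with TCP, 0.192 and 0.0741 with palbociclib and 1.09 and 0.639 with the combination. This ratio was thus highest in the TCP libraries and lowest in the palbociclib libraries. Its absolute level rests on the gene lengths behind the TPM, so it does not count transcripts of LY96 for each of TLR4. The ratio of CD14 to TLR4 was 0.0613 and 0.131 in control, 0.578 and 0.823 with TCP, 1.26 and 1.09 with palbociclib and 7.33 and 6.90 with the combination. This ratio did not overlap between any 2 groups. In TPM, CD14 was thus the lowest of the 3 genes in control and the highest in both groups with palbociclib.

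**Figure D2:**
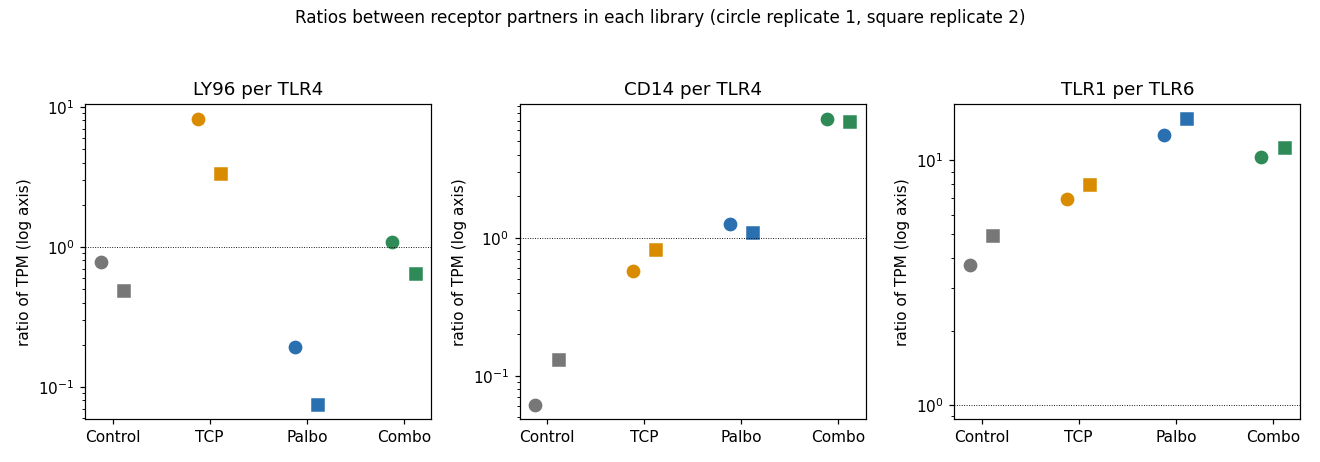
Ratio of TPM between partner genes (vertical, log axes) in each of the 8 libraries by group, for LY96 to TLR4, CD14 to TLR4 and TLR1 to TLR6; circles are replicate 1, squares replicate 2, and the dotted line marks equal levels. LY96 exceeded TLR4 in both TCP libraries and in combination replicate 1, and CD14 exceeded TLR4 in the 4 libraries with palbociclib.

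TLR2, the shared partner of the lipopeptide receptors, was the most abundant Toll-like receptor of the 10 genes in every library. It was present at 70.0 and 96.1 TPM in control, 62.3 and 66.0 TPM with TCP, 198 and 259 TPM with palbociclib and 203 and 243 TPM with the combination. Both groups with palbociclib lay above both groups without it, and the combination libraries lay between the palbociclib libraries. TLR2 rose with palbociclib by a log2 fold change of 1.45 (adjusted p = 0.00114) and with the combination by 1.43 (adjusted p = 0.000827), and without the filter on low values both missed the threshold (adjusted p = 0.015 and 0.012). The combination differed from palbociclib by -0.03 (95% interval -0.47 to 0.41, adjusted p = 0.965), and TCP from control by -0.35 (adjusted p = 0.668).

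TLR1, one of the partners of TLR2, was higher with each molecule and highest with both. Its level was 6.31 and 6.61 TPM in control, 13.2 and 9.67 TPM with TCP, 24.9 and 30.8 TPM with palbociclib and 48.8 and 48.7 TPM with the combination. The groups did not overlap and kept the same order as those of CD14. TLR1 rose by a log2 fold change of 1.94 (adjusted p = 0.000241) with palbociclib and 2.74 (adjusted p = 3.97e-05) with the combination, whereas the difference of 0.72 with TCP (adjusted p = 0.17) and of 0.80 between the combination and palbociclib (adjusted p = 0.0468) did not pass.

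TLR6, the other partner, was scarce and was a DEG only in the 2 comparisons of the combination with control and with TCP. It measured 1.69 and 1.35 TPM in control, 1.89 and 1.22 TPM with TCP, 1.96 and 2.08 TPM with palbociclib and 4.71 and 4.35 TPM with the combination. The combination libraries lay above the other 6. The log2 fold change was 1.14 (SE 0.18, adjusted p = 0.00188) against control and 1.13 (adjusted p = 0.00217) against TCP, while palbociclib alone gave 0.26 (adjusted p = 0.269) and the step from palbociclib to the combination gave 0.87 (adjusted p = 0.0511).

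These TLR6 calls were lost under several settings. Against control the adjusted p was 0.0153 without control replicate 2, 0.0162 without combination replicate 1 and 0.0134 without combination replicate 2. Against TCP the call was lost without combination replicate 1 (adjusted p = 0.0184) or 2 (adjusted p = 0.0152) and without TCP replicate 2, where the log2 fold change was 0.94. It was also lost without the filter on low values (adjusted p = 0.011) and with only the groups compared (adjusted p = 0.0132).

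The ratio of TLR1 to TLR6 was 3.73 and 4.90 in control, 6.98 and 7.92 with TCP, 12.7 and 14.8 with palbociclib and 10.4 and 11.2 with the combination. TLR1 was thus the more abundant partner in all 8 libraries, least so in control, and the groups did not overlap. Since both genes share their locus and part of their sequence, the way reads were divided between them may enter this ratio, and its part was not tested. TLR2 exceeded TLR1 in every library, by 11.1 and 14.5 times in control, 4.72 and 6.82 times with TCP, 7.95 and 8.43 times with palbociclib and 4.16 and 5.00 times with the combination.

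TLR8, an endosomal receptor of single-stranded RNA, had the second largest change. It was at 0.670 and 0.945 TPM in control, 1.15 and 1.67 TPM with TCP, 10.5 and 14.7 TPM with palbociclib and 57.9 and 59.8 TPM with the combination. As with CD14 the 4 groups did not overlap. The mean level was 15.6 times that of control with palbociclib and 72.8 times with the combination, with log2 fold changes of 2.90 (SE 0.19, adjusted p = 0.000117) and 5.05 (adjusted p = 1.32e-05). With TCP alone the log2 fold change was 0.41 (adjusted p = 0.618).

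The combination exceeded palbociclib alone by a log2 fold change of 2.16 for TLR8 (SE 0.19, adjusted p = 0.0041), a DEG with 4.67 times the mean level. This call too was lost when single libraries were left out, with an adjusted p of 0.032 and 0.026 without palbociclib replicate 1 or 2, of 0.0682 and 0.0532 without combination replicate 1 or 2, and of 0.0116 and 0.0117 without control replicate 1 or 2.

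TLR7, which lies next to TLR8 on chromosome X (12885191 to 12908480, plus strand) and recognises a similar ligand, did not share this pattern. Its highest value was 0.436 TPM. The values were 0.414 and 0.307 TPM in control, 0.436 and 0.203 TPM with TCP, 0.124 and 0.0204 TPM with palbociclib and 0.131 and 0.384 TPM with the combination. In a fit without the filter on low values its log2 fold change was -0.34 with palbociclib (adjusted p = 0.193) and -0.12 with the combination (adjusted p = 0.732).

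TLR5, the flagellin receptor, stayed at a few TPM. It was at 1.57 and 1.08 TPM in control, 1.74 and 0.879 TPM with TCP, 2.92 and 2.22 TPM with palbociclib and 3.62 and 3.22 TPM with the combination. Both groups with palbociclib lay above both groups without it. The log2 fold changes of 0.62 with palbociclib (adjusted p = 0.065) and 0.94 with the combination (adjusted p = 0.0129) did not pass, although the latter was 1.10 (adjusted p = 0.00596) after scaling by median ratios.

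MYD88, the adaptor below all these receptors, was abundant and was no DEG in any comparison. It was at 76.1 and 70.4 TPM in control, 80.2 and 68.1 TPM with TCP, 85.2 and 88.7 TPM with palbociclib and 124 and 122 TPM with the combination. The combination libraries lay above the other 6, at 1.68 times the control mean. Its log2 fold change of 0.75 with the combination (SE 0.09, adjusted p = 0.00074) was under the fold threshold of a DEG, as was the 0.50 between the combination and palbociclib (adjusted p = 0.0402). In the order of levels MYD88 was among the more abundant of the 10 genes in control, together with TLR2, and with the combination it stood below CD14 and TLR2.

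**Figure D3:**
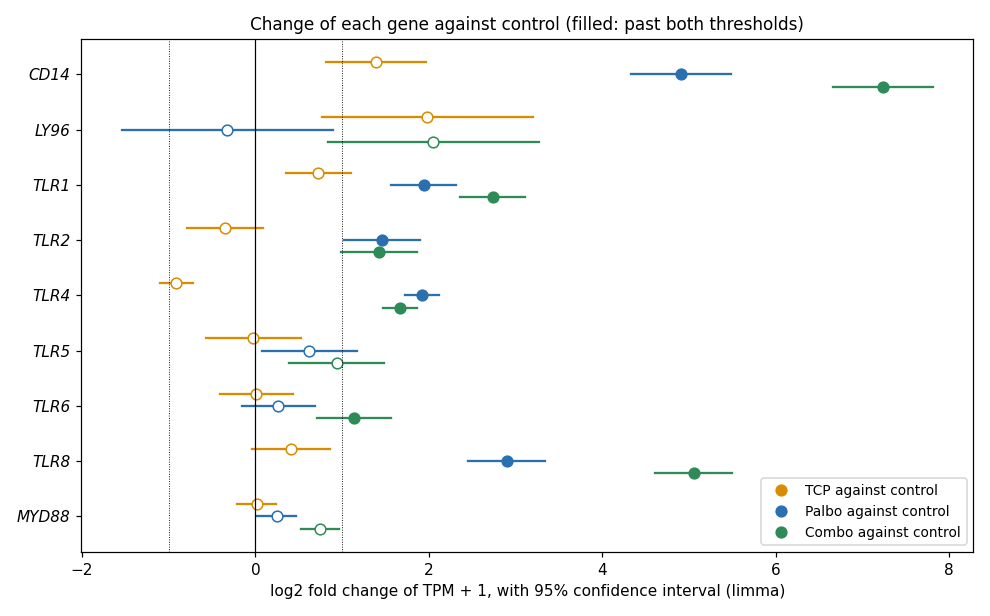
Log2 fold change of TPM + 1 against control (horizontal) with its 95% confidence interval from limma for the 9 tested genes, in TCP, palbociclib and combination libraries; filled points passed both thresholds of a DEG and dotted lines mark a log2 fold change of 1 in either direction. Palbociclib had 5 filled points and the combination 6, TCP had none, and the wide intervals of LY96 reflect its replicates.

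Counted over the 9 tested genes, none was a DEG with TCP, where 0.0565% of all tested genes were called higher and 4 of the 9 had an unadjusted p below 0.05, as did 8.77% of all genes. With the block LY96 was called, against 0.106% of all genes. With palbociclib 5 rose (CD14, TLR1, TLR2, TLR4 and TLR8), against 4.54% of all genes. With the combination 6 rose, the same genes and TLR6, against 5.87% of all genes, and with the block LY96 was added, against 6.19%. None of the 9 was a DEG with a lower level in these comparisons, and the decrease of TLR4 with TCP was under the fold threshold. The median log2 fold change of the 9 was 0.02 with TCP, 1.45 with palbociclib and 1.67 with the combination, beside -0.04, -0.16 and -0.22 over all tested genes.

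Between the combination and palbociclib 2 of the 9 were DEG, CD14 and TLR8, both higher, against 0.459% of all genes, and with the block LY96 was added, against 0.721%. Between the combination and TCP 6 were DEG, all higher (CD14, TLR1, TLR2, TLR4, TLR6 and TLR8), against 5.46% of all genes.

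The 2 libraries of a group lay wholly above the other group for 4 of the 9 genes with TCP (12.4% of all genes), 8 with palbociclib (26.5%) and 9 with the combination (26.0%). They lay wholly below for 2 genes with TCP, TLR2 and TLR4 (22.3% of all genes). The combination lay wholly above palbociclib for 7 genes (16.6%) and wholly below for TLR4 (37.2%), and it lay wholly above TCP for 8 genes (25.9%). LY96 was the exception against control with palbociclib and against TCP with the combination, and TLR2 was the exception between the combination and palbociclib.

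The interaction of the molecules asks whether the change with the combination exceeded the sum of the changes with each molecule on the log2 scale. No gene of the table was called (0% of the tested genes), with 6.39% of all genes and 5 of the 9 at an unadjusted p below 0.05. The estimate was 1.75 for TLR8 (SE 0.27, adjusted p = 0.21), 0.93 for CD14 (adjusted p = 0.729), 0.86 for TLR6 (adjusted p = 0.564) and 0.66 for TLR4 (adjusted p = 0.246). It was above 0 for all 9 genes on log2(TPM + 1), with a median of 0.49 beside -0.03 over all tested genes. Without palbociclib replicate 2 or TCP replicate 2 it was below 0 for LY96. Without palbociclib replicate 1 or TCP replicate 2 it was below 0 for TLR1. Since log2(TPM + 1) understates changes near 0, it can raise this estimate for genes that are scarce in control and rise with TCP. On mean TPM, CD14 was 3.66 times higher with TCP than in control. It was 5.05 times higher with the combination than with palbociclib. The same 2 values were 1.77 and 1.75 for TLR1 and 1.74 and 4.67 for TLR8.

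Across the 8 libraries the levels of CD14 and TLR8 followed each other (Pearson r = 0.988 of log2(TPM + 1)), as did CD14 and TLR1 (0.983), TLR2 and TLR4 (0.973) and TLR6 and MYD88 (0.994). LY96 followed none of them, with r from -0.277 with TLR4 to 0.482 with TLR6. These values describe 8 libraries that fall into 4 groups, and they carry no test. The tested genes outside the 10 whose levels were most like those of CD14 were TLDC2 (0.9986), DGKQ, a diacylglycerol kinase (0.9973), and LYN, a Src family kinase (0.9968). Among those most like TLR2 were M6PR, a mannose-6-phosphate receptor (0.9938), and CPD, a carboxypeptidase (0.9932). Those most like TLR4 were SLC44A1, a choline transporter (0.9971), FYB, an adaptor of immune cells (0.9958), and B4GALT5, a galactosyltransferase (0.9952).

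The wider pathway was described with 74 genes in 5 lists, of which 67 were tested. With TCP none was a DEG, and 12 had an unadjusted p below 0.05, beside 8.77% of all genes. With palbociclib 9 rose and 2 fell, where 4.54% of all genes were called higher and 4.56% lower, and without palbociclib replicate 2 there were 7 calls, all higher. With the combination 12 rose and 2 fell, where 5.87% were called higher and 7.82% lower. Between the combination and TCP 9 were higher and 2 lower, where 5.46% of all genes were called higher and 6.70% lower. The counts of the single lists are given below with the same shares, and some of them are close to these. The median log2 fold change of the 67 genes with the combination was 0.32, beside -0.22 over all tested genes.

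Among the receptor genes outside the 10, TLR3 and TLR10 were below the filter. TLR9, the endosomal receptor of unmethylated DNA, was at 3.86 and 3.59 TPM in control, 5.42 and 5.87 TPM with TCP, 1.75 and 2.08 TPM with palbociclib and 1.97 and 1.96 TPM with the combination. It was a DEG only between the combination and TCP (log2 fold change -1.17, adjusted p = 0.000587), opposite in direction to TLR8.

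Of 14 tested accessory genes, which fold, transport or process the receptors or present their ligands, 4 were DEG with the combination, all higher. Over all tested genes 5.87% were called higher and 7.82% lower. CD36, a scavenger receptor that works with TLR2 and its partners, went from 0.883 ± 0.526 TPM (SD, n = 2) in control to 15.6 ± 5.23 TPM with palbociclib and 30.3 ± 10.9 TPM with the combination (log2 fold change 4.04). CTSB, a lysosomal protease, went from 110 ± 5.55 to 256 ± 20.2 and 533 ± 8.04 TPM (2.27), and SLC15A3, an endosomal transporter of peptides and histidine, from 13.6 ± 1.51 to 33.1 ± 0.993 and 58.2 ± 6.82 TPM (2.02).

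CTSS, another lysosomal protease, behaved differently, with 52.1 ± 4.93 TPM in control, 40.7 ± 4.52 TPM with palbociclib and 108 ± 17.4 TPM with the combination. CTSS and CTSB were 2 of the 4 that rose against control. They were the only genes of the 67 that were DEG between the combination and palbociclib, with log2 fold changes of 1.38 (adjusted p = 0.00923) and 1.06 (adjusted p = 0.00558). Between the combination and palbociclib 0.459% of all tested genes were called higher. None of the 67 was called in that comparison when a control, palbociclib or combination library was left out, and 1 was called when a TCP library was left out. UNC93B1, which carries the endosomal receptors to their compartment, was not a DEG, with 115 to 152 TPM over the 8 libraries. RP105, the product of CD180 that resembles TLR4, and its partner MD-1, the product of LY86, which resembles MD-2, were also not DEG, with CD180 at 210 to 315 TPM and LY86 at 70.1 to 147 TPM.

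Of 28 tested signalling genes 3 were DEG with the combination, all higher, and the median log2 fold change was -0.04. Over all tested genes 5.87% were called higher and 7.82% lower, and 3 in 28 is not far from the former share. SCIMP, a membrane adaptor of Toll-like receptors, went from 8.34 ± 0.624 TPM in control to 39.7 ± 2.32 TPM with palbociclib and 60.7 ± 1.88 TPM with the combination (log2 fold change 2.72). IRF5, a transcription factor below MYD88, went from 17.6 ± 1.34 to 34.3 ± 0.224 and 52.5 ± 0.141 TPM (1.53). TICAM2, the adaptor that links TLR4 to interferon genes, had 3.18 ± 0.393 TPM in control, 6.63 ± 0.961 TPM with TCP, 3.18 ± 0.0907 TPM with palbociclib and 7.91 ± 1.40 TPM with the combination (1.09, adjusted p = 0.00157). TICAM2 thus was higher in the groups with TCP, as LY96 was, although with TCP alone it was no DEG (0.87, adjusted p = 0.113). Between the combination and palbociclib its adjusted p was 0.0215, and 0.00699 with the replicate block, which made it a DEG.

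Of 12 tested inhibitors of the pathway 4 rose with the combination and 1 fell, with a median log2 fold change of 0.77. Over all tested genes 5.87% were called higher and 7.82% lower, and 1 in 12 is near the latter share. IRAK3, a kinase relative that restrains MYD88 signalling, went from 64.7 ± 8.75 TPM in control to 179 ± 11.4 TPM with palbociclib and 219 ± 6.93 TPM with the combination (log2 fold change 1.75). TNIP1, which acts with the ubiquitin editor A20, went from 64.7 ± 0.711 to 126 ± 9.20 and 165 ± 10.8 TPM (1.34), ZC3H12A, an RNase of cytokine transcripts, from 13.8 ± 0.406 to 34.9 ± 4.49 and 33.9 ± 1.61 TPM (1.24), and TOLLIP from 33.5 ± 3.05 to 69.3 ± 9.61 and 70.8 ± 6.51 TPM (1.06). ATF3, a stress-induced repressor of inflammatory genes, fell from 19.4 ± 4.99 to 3.66 ± 1.23 and 4.37 ± 1.16 TPM (-1.92, adjusted p = 0.0056). With the replicate block SARM1, another inhibitor, was also a DEG with the combination against control (log2 fold change 1.12, adjusted p = 0.0013, against 0.0154 without it) and against TCP (1.07, adjusted p = 0.00173, against 0.02).

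Of 12 tested cytokine and mediator genes 1 rose and 1 fell with palbociclib, where 4.54% of all genes were called higher and 4.56% lower, and likewise with the combination, where these shares were 5.87% and 7.82%. A single gene in 12 is near those shares. CCL2, a chemokine for monocytes, went from 9.76 ± 0.687 TPM in control to 159 ± 55.5 TPM with palbociclib and 417 ± 114 TPM with the combination (log2 fold change 5.25, adjusted p = 2.88e-05). CXCL10, an interferon-induced chemokine, fell from 31.1 ± 3.37 to 2.99 ± 0.200 and 4.51 ± 0.436 TPM (-2.54, adjusted p = 0.00321).

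IL6, CXCL8, PTGS2 and IL1B were higher in replicate 2 of every group, as were the summed stromal markers, whereas IL1RN was higher in replicate 1 of every group. IL6 was at 8.08 and 84.6 TPM in the palbociclib libraries, CXCL8 at 81.8 and 299 TPM and PTGS2 at 4.08 and 40.3 TPM. The higher value of each belonged to palbociclib replicate 2, the library with the highest summed stromal level, and the part of stromal RNA in these values was not tested. With the replicate block CXCL8 was a DEG with palbociclib (adjusted p = 0.00565, against 0.12 without it) and for the combination against TCP (adjusted p = 0.00746, against 0.143), and IL1B, at 2.84 and 26.3 TPM in control and 61.9 and 69.2 TPM with the combination, was a DEG with the combination (adjusted p = 0.00699, against 0.0694). Of the 9 tested receptor complex genes, TLR2 (198 and 259 TPM), TLR1 (24.9 and 30.8 TPM), TLR8 (10.5 and 14.7 TPM), TLR4, TLR6 and MYD88 were higher in that library than in palbociclib replicate 1, and CD14, LY96 (11.7 and 4.64 TPM) and TLR5 were lower. Without that library 5 of the 9 were DEG against control.

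**Figure D4:**
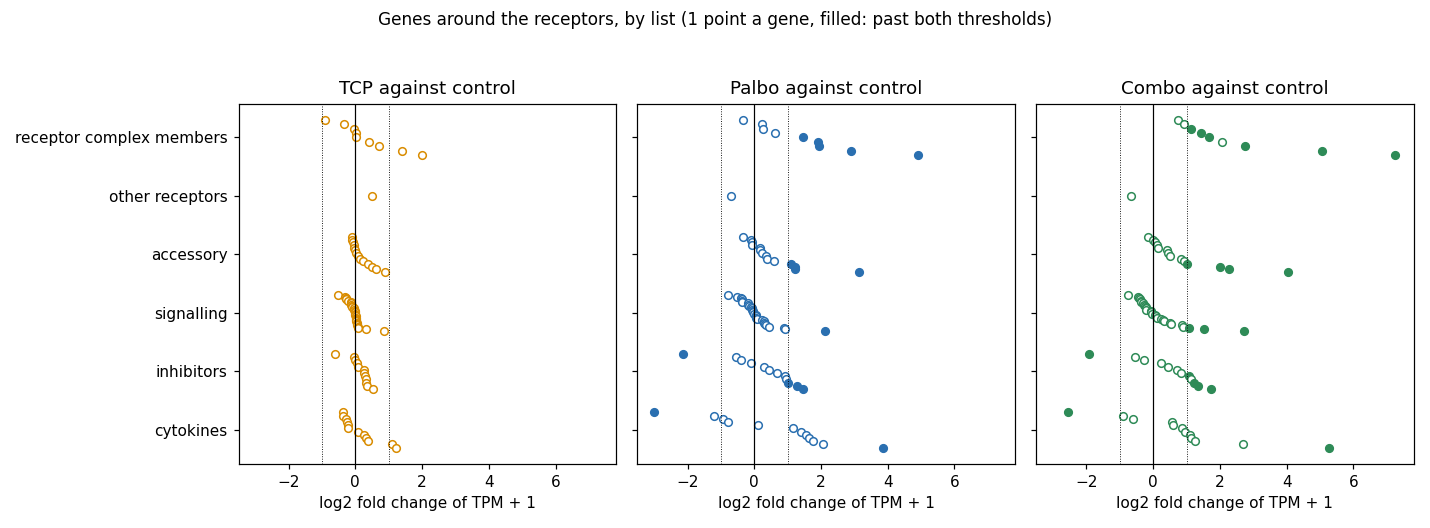
Log2 fold change of TPM + 1 against control (horizontal) for every tested gene of the 10 and of the 5 surrounding lists (vertical), 1 panel for each treatment; 1 point is a gene, and filled points passed both thresholds of a DEG. TCP had no filled point. With palbociclib and with the combination the highest filled point was CD14 of the receptor complex, and the next was CCL2 of the cytokine list. Most signalling genes stayed near 0.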

How the data were processed

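The authors sequenced stranded mRNA libraries of MV4-11 cells, aligned the reads to hg19 (GRCh37) by subread-align, obtained gene counts with featureCounts 1.6.4 and deposited 1 table of TPM computed from these counts. The submitters' processing notes also list DESeq2 1.26.0, whose values were not used. The gene annotation and strand setting of the counting are not given in the sources used here, and TPM keep no depth. Genes with overlapping or near-identical sequence can have exchanged reads, and TPM of all genes shift when a few abundant genes take a larger share.

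From the deposited TPM, log2(TPM + 1) was fitted in limma 3.58.1 (R 4.3.3) using 1 coefficient for each of the 4 groups over 8 libraries, 4 residual degrees of freedom and a mean-variance trend, and p-values were adjusted by Benjamini-Hochberg over 14151 genes. The study names no block. Groups share the numbers 1 and 2. The deviations from the group means of libraries with the same number correlated across genes by 0.169 to 0.491 in all 6 pairs of groups. What libraries of the same number share is not given, so the main fit has no block and the blocked fit is an alternative. Blocked values stand beside the results they change.

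The 10 genes and the lists were chosen with earlier results of these data known. Of each list the text names up to 5 DEG with the largest change with the combination and any DEG with TCP or between the combination and palbociclib, and for CD14, TLR2 and TLR4 the 3 most correlated tested genes, of which 1 is not reported here. TLR9, CD180, LY86, UNC93B1, SARM1, IL6, CXCL8, PTGS2, IL1B and IL1RN were named after their values were seen. Alternatives were a pseudocount of 0.1, no filter, a mean of 5 TPM, quantile and median-ratio scaling, the block, only the groups compared, no trend, an adjusted p below 0.05 and each library left out. Promoters were read from RefSeq. None was used for LY96, TLR1 and TLR7.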

Additional observations from a re-analysis of the deposited data

How the results depend on the processing

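The members called against control stayed within 1.5 times the reported number under every alternative run except TCP with the replicate block, where 1 was called and not 0. In the comparison of the combination with palbociclib, 2 of the 9 genes were called as reported, 0 with a pseudocount of 0.1 and without the filter on low values, 1 with only the groups compared and 1 without the trend, and 0 to 2 when each library was left out in turn. Of the 67 pathway genes in that comparison, 2 were called as reported, 1 with the pseudocount of 0.1, 0 without the filter, 0 with only the groups compared, 1 without the trend, 5 at an adjusted p below 0.05 and 0 to 1 with each library left out. With palbociclib against control, 11 pathway genes were called as reported, 6 without the filter and 7 to 11 with each library left out. The cause was not tested. For the combination against control, 8 of the 9 genes were called after median-ratio scaling.

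Differences near 0 changed sign. TLR2 differed between the combination and palbociclib by 0.042 after median-ratio scaling and by -0.22 to 0.17 with each library left out. In the latter fits LY96 ranged from -0.91 to 0.26 with palbociclib against control, from -0.51 to 0.65 for the combination against TCP and from -0.19 to 0.98 for the interaction, and the TLR1 interaction from -0.13 to 0.28. With TCP against control the ranges were -0.30 to 0.25 for TLR5, -0.18 to 0.20 for TLR6 and -0.10 to 0.13 for MYD88. Where a library was left out, the lone library of its group was assumed to vary like the other groups. The replicate block changed no call of the 9 genes other than those of LY96 given in the report. The unknown depth limits what can be said of TLR7, TLR5 and TLR6, which stayed below 5 TPM. It also limits the folds of CD14 and TLR8 against control. The control libraries held CD14 at 0.943 and 2.07 TPM and TLR8 at 0.670 and 0.945 TPM.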
